A study of Mus musculus with 4 samples.

Results

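The 48 genes described here act in mitosis, in the spindle checkpoint and at the centromere, out of 23282 gene rows in each count file. Of these, 30 were chosen by name and 18 by a symbol made of Cenp followed only by letters, so that a gene such as Cenpc1 falls outside. All 48 passed the filter on low counts, as did 14801 rows in all. Their transcripts were measured by RNA sequencing of total RNA from mammary tumours of female FVB mice, an inbred strain, at 14 weeks of age. All of the mice carried PyMT, the polyoma virus middle T antigen, an oncogene that drives mammary carcinoma. Libraries of 2 tumour samples were labelled Nr1d1+/+;PyMT and 2 were labelled Nr1d1-/-;PyMT, where Nr1d1 encodes REV-ERBα, a repressor of the circadian clock. The sources used here do not give the promoter that drives PyMT, the exons that the null allele lacks or the hour of collection. Nor do the labels call the replicates separate animals, and p-values therefore describe the spread between these samples alone, which could be technical.

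Total counts ran from 15905404 to 19116279 per library, and counts of single members from 32 to 5587. Levels are counts per 1000000 counts of the TMM-normalised library size (CPM), and log2 folds set the Nr1d1-/- label over the Nr1d1+/+ label. Nr1d1 itself was at 20.2 and 10.3 CPM in Nr1d1+/+ replicates 1 and 2 and at 10.6 and 12.8 CPM in Nr1d1-/- replicates 1 and 2, with overlapping groups, so its level does not check the labels. The 8 epithelial markers, such as Epcam and Krt8, were all detected and summed to 6030 and 5111 CPM in Nr1d1+/+ and to 9774 and 9131 CPM in Nr1d1-/-, where Krt8, Krt18 and Krt19 rose and Cdh1 fell. Markers of other cells moved with genotype as well: all 5 tested red blood cell markers rose, from sums over the list of 453 and 581 CPM to 2017 and 2194 CPM, and so did 5 of 8 endothelial, 4 of 6 adipocyte, 2 of 7 macrophage, 1 of 8 fibroblast and 1 of 6 T and NK cell markers. Over all tested genes, 16.5% rose. With GC and length trends removed, 4 red blood cell and 4 endothelial markers rose, beside 11.2% of all genes. For adipocyte, macrophage, fibroblast and T and NK cell markers it was 1 each. Of the epithelial markers, only Krt19 then rose and none fell. Kdr and Cdh5 of the endothelial list and Cd8a were lower in both Nr1d1-/- libraries but did not pass (log2 folds -1.14, -0.46 and -3.33). The endothelial sum ran from 45.2 to 55.2 CPM in Nr1d1+/+ and from 72.5 to 99.1 CPM in Nr1d1-/-, the adipocyte sum from 28.3 to 55.7 and from 112 to 165 CPM, and the macrophage sum from 96.4 to 126 and from 202 to 294 CPM. The T and NK cell sum ran from 12.1 to 14.7 CPM in Nr1d1+/+ and from 19.7 to 21.3 CPM in Nr1d1-/-, the B and plasma cell sum from 0.568 to 1.72 and from 1.99 to 4.62 CPM, and the fibroblast sum from 585 to 1056 and from 1033 to 1084 CPM. Skeletal muscle markers summed to 776 CPM in Nr1d1-/- replicate 1 and to between 2.30 and 6.02 CPM elsewhere. The part of these cells in the results below was not tested.

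Mitotic transcripts accumulate late in the cell cycle and are largely absent from resting cells. Cyclin-dependent kinase 1 and its cyclins start mitosis, condensin compacts the chromosomes, and centromere proteins build the kinetochore on which spindle microtubules pull. The spindle checkpoint holds back the anaphase-promoting complex until every kinetochore is attached. In tumours the summed level of such transcripts is widely read as a measure of proliferation.

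In the libraries labelled Nr1d1-/-, 3 of the 48 transcripts rose, 4 fell and 41 did not pass the threshold, an adjusted p under 0.05 in edgeR's quasi-likelihood F test over all tested genes. Spc24 of the outer kinetochore, Cenpm of the inner kinetochore and Ncapd2 of condensin rose. The checkpoint kinase Bub1b, the condensin ATPases Smc2 and Smc4 and the kinetochore motor Cenpe fell. The calls made up 14.6% of the members, below the 33.9% of all 14801 tested genes that the same test called, of which 16.5% of genes were higher and 17.3% lower. Among the 10097 genes whose mean level lay in the range of the members, 5.02 to 189 CPM, 40.2% were called. The members' median log2 fold was -0.25, beside -0.007 over all tested genes, and 29 members lay below 0 and 19 above. Without Nr1d1+/+ replicate 2 this median was -0.061, with 25 members below 0. Leaving out Nr1d1+/+ replicate 1 instead put it at -0.42, and leaving out Nr1d1-/- replicate 1 or replicate 2 put it at -0.19 or -0.22. When trends with GC content and transcript length were removed from each library, the median was -0.067, beside -0.037 over all tested genes. Leaving out any 1 library changed which members were called. Without Nr1d1+/+ replicate 1 there were 1 higher and 7 lower, beside 24.4% of all genes called. Without Nr1d1+/+ replicate 2 only Spc24 was called, higher, beside 8.19% of all genes called higher and 8.63% lower. Without Nr1d1-/- replicate 1 there were 2 higher and 6 lower, beside 27.4% of all genes called, 13.0% higher and 14.4% lower. Scaled by library size alone, 1 member was higher and 18 were lower, beside 8.65% and 29.8% of all genes, and the median of all genes moved by -0.38.

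The 48 transcripts together took 1592 counts per 1000000 total counts in Nr1d1+/+ replicate 1 and 1966 in replicate 2, and they took 1256 in Nr1d1-/- replicate 1 and 1214 in replicate 2. The share was lower in both Nr1d1-/- libraries, at 1235 ± 29.7 against 1779 ± 264 (SD, n = 2 each). On TMM-normalised library sizes the sums were 1439, 1673, 1465 and 1357 CPM in the same order, and the groups overlapped. The TMM factors were 1.11 and 1.18 in Nr1d1+/+ and 0.859 and 0.895 in Nr1d1-/-, and the source of the lower share was not tested. Even for a true fall, fewer dividing cells and less of these RNAs per dividing cell cannot be told apart in whole tumours. By sample, 20 members were lower in both Nr1d1-/- libraries than in both Nr1d1+/+ libraries and 10 were higher in both. That is 41.7% and 20.8% of members beside 36.2% and 34.4% of all tested genes, and 62.5% beside 70.5% for either direction.

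**Figure D1:**
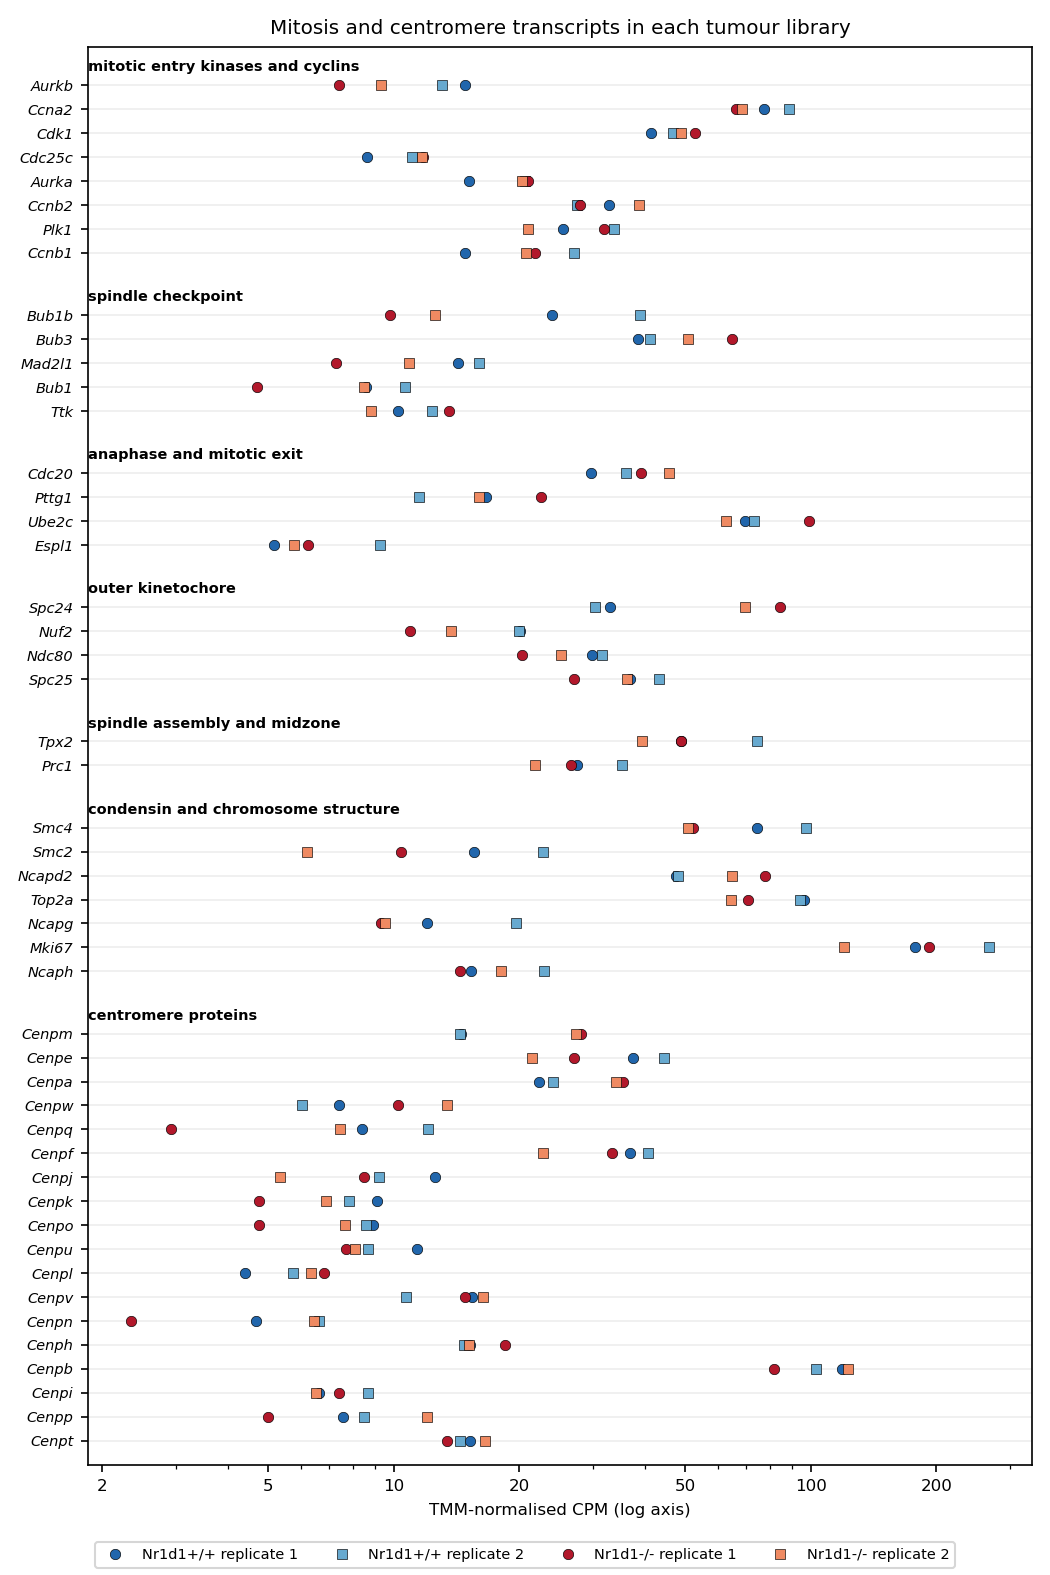
TMM-normalised CPM of the 48 transcripts (log axis) in each of the 4 libraries, grouped by role, with 1 point per library and the genes of each role ordered by p. For Spc24 both Nr1d1-/- points lie right of both Nr1d1+/+ points and for Bub1b both lie left, and for 18 of the 48 genes the points of both genotypes overlap.

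Promoters of mitotic genes often hold a cell cycle homology region, which the DREAM complex binds, beside CCAAT boxes, which the factor NF-Y binds. RefSeq promoters of mouse assembly GRCm38.p6 were listed for 42 of the 48 genes, in 46 windows of the 250 bases before a transcript start. The letters TTTGAA or TTCGAA, on either strand, stood in 39.1% of these windows and in 17.1% of all 32851 listed promoters of this length. The letters CCAAT, on either strand, stood in 71.7% of these windows and in 33.8% of all listed, and both stood in 39.1% and 6.02%. A homology region shared a base with a CCAAT box in 1 of the 46 windows, that of Cenpw, CCAAT boxes shared bases in 1, that of Ube2c, and windows of 1 gene can share bases. Of the 7 called genes, 5 had a listed promoter, of which 4 held the homology region and 5 a CCAAT box. Below are the promoters of Bub1b (chr2:118597961-118598210, plus strand), Cenpm (chr15:82244337-82244586, minus strand) and Smc2 (chr4:52438971-52439220, plus strand), shown because they are the called genes of lowest p that hold the region, although Cenpm rose and the other two fell. Cenpt (chr8:105852009-105852258, minus strand) is shown as the member whose transcript moved least. Capitals mark the homology region (TTCGAA, or TTCAAA for TTTGAA on the opposite strand) and the CCAAT box (ATTGG on the opposite strand).
Bub1b: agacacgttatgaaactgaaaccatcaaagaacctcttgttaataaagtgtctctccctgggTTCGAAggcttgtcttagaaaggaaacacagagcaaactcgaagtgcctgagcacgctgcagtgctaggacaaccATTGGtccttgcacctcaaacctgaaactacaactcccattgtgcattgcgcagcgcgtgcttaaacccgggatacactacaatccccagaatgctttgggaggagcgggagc
Cenpm: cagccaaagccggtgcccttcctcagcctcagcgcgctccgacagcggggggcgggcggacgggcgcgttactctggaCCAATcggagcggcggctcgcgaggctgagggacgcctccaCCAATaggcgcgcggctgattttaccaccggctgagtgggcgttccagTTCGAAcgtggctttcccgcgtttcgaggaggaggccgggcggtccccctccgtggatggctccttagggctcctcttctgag
Smc2: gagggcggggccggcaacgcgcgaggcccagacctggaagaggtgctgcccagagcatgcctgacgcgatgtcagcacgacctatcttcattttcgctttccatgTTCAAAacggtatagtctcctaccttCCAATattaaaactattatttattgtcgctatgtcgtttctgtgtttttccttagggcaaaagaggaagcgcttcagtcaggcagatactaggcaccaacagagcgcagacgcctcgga
Cenpt: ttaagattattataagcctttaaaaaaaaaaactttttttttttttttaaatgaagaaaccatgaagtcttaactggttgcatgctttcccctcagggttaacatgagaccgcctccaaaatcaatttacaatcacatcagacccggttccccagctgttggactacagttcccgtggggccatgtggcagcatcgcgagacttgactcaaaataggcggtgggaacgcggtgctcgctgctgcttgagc
In Bub1b the homology region lies 188 bases before the start, counted to its first base, and the CCAAT box 113, in Cenpm they lie 83 and both 172 and 131 bases before it, and in Smc2 145 and 119. The Cenpt window holds neither. A match is a description of letters and not a bound site.

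The kinases and cyclins that start mitosis gave no call in either direction among 8 members by edgeR, DESeq2 or limma-voom, and 1 member, Aurkb, had an unadjusted p under 0.05 in each. Aurkb, the kinase of the chromosomal passenger complex, was at 14.8 and 13.1 CPM in Nr1d1+/+ replicates 1 and 2 and at 7.40 and 9.31 CPM in Nr1d1-/- replicates 1 and 2. Both Nr1d1-/- libraries were the lower, with a log2 fold of -0.73 (SE 0.29 and edgeR adjusted p = 0.0782), and it passed only with both trends removed (-0.91, edgeR adjusted p = 0.0462) or when scaled by library size alone. Ccna2, cyclin A2, was at 77.3 and 88.9 CPM and at 66.2 and 68.3 CPM in the same order. Its groups did not overlap, yet the log2 fold of -0.31 (SE 0.18) did not pass, with an edgeR adjusted p of 0.218. Cdk1, the kinase that drives entry into mitosis, was at 41.4 and 46.7 CPM and at 52.9 and 48.7 CPM. The groups lay apart by little, with a log2 fold of 0.21 and a 95% interval from -0.23 to 0.64, which turned to -0.18 when scaled by library size alone and was 0.57 with trends removed (edgeR adjusted p = 0.0549). The other members of the role, Ccnb1 and Ccnb2 (the B-type cyclins), Cdc25c (the phosphatase that activates Cdk1), Plk1 and Aurka (kinases of the spindle poles), had log2 folds from -0.16 to 0.25, and of these only Cdc25c did not overlap between genotypes. The interval for Ccnb1 ran from -0.67 to 0.71, so these values leave changes of that size in either direction possible.

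Of the 5 spindle checkpoint members, Bub1b fell and 4 did not pass. Bub1b encodes BubR1, which holds the anaphase-promoting complex inactive, and was at 23.99 and 38.9 CPM in Nr1d1+/+ replicates 1 and 2 and at 9.82 and 12.5 CPM in Nr1d1-/- replicates 1 and 2. Its level was far lower in both Nr1d1-/- libraries, 2.80-fold lower on average with a log2 fold of -1.49 (SE 0.30 and edgeR adjusted p = 0.00745). It stayed lower with trends removed (-1.29, edgeR adjusted p = 0.0178), and missed the threshold only without Nr1d1+/+ replicate 2 (-1.11, edgeR adjusted p = 0.0506). Bub3, the protein that carries BubR1 and Bub1 to kinetochores, was at 38.6 and 41.2 CPM and at 64.7 and 50.8 CPM. It was higher in both Nr1d1-/- libraries, with a log2 fold of 0.53 (SE 0.20) and an edgeR adjusted p of 0.0727; it was 0.15 when scaled by library size alone and passed without Nr1d1-/- replicate 2 (0.70, edgeR adjusted p = 0.0368) and with upper quartile scaling. Mad2l1, the checkpoint protein MAD2, was at 14.3 and 16.0 CPM and at 7.26 and 10.9 CPM. Its groups did not overlap, and the log2 fold of -0.74 (SE 0.30 and edgeR adjusted p = 0.0881) passed without Nr1d1-/- replicate 2 (-1.06, edgeR adjusted p = 0.0386) and when scaled by library size alone. The kinases Bub1 and Ttk had log2 folds of -0.53 and -0.022, and the interval of Ttk ran from -0.73 to 0.69.

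Among the 4 genes of anaphase and mitotic exit, none was called by edgeR, DESeq2 or limma-voom, and 0 had an unadjusted p under 0.05. Cdc20, the activator of the anaphase-promoting complex, was at 29.7 and 36.0 CPM in Nr1d1+/+ replicates 1 and 2 and at 39.2 and 45.7 CPM in Nr1d1-/- replicates 1 and 2. The Nr1d1-/- libraries were the higher, at a log2 fold of 0.37 (SE 0.21), and the log2 fold was -0.009 when scaled by library size alone and -0.000205 with trends removed. Pttg1, securin, was at 16.7 and 11.5 CPM and at 22.6 and 16.0 CPM, with overlapping groups. Ube2c, the ubiquitin-conjugating enzyme of the complex, was at 69.6 and 72.9 CPM and at 98.8 and 62.7 CPM. The libraries labelled Nr1d1-/- bracketed the other two, and the log2 fold went from 0.18 to -0.19 without Nr1d1-/- replicate 1. The gene span of Ube2c, introns included, overlaps that of Tnnc2 on the opposite strand by 1662 bases. The Ube2c transcript has 967 bases, and overlap of exons was not measured. Tnnc2, a skeletal muscle troponin, was at 38.0 CPM in Nr1d1-/- replicate 1 and at 0.0473 to 0.124 CPM in the others. No source used here says whether counting used the strand, so reads from any exon bases that both genes share could not be told apart. Espl1, separase, had a log2 fold of -0.27 with overlapping groups.

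In the outer kinetochore the 4 subunits of the NDC80 complex, which binds microtubules, moved apart: Spc24 rose, and Nuf2, Ndc80 and Spc25 did not pass, with log2 folds below 0. Spc24 was at 33.1 and 30.4 CPM in Nr1d1+/+ replicates 1 and 2 and at 84.2 and 69.6 CPM in Nr1d1-/- replicates 1 and 2. No Nr1d1+/+ library reached either Nr1d1-/- library, which were 2.42-fold higher on average, with a log2 fold of 1.28 (SE 0.20, 95% interval 0.83 to 1.72, edgeR adjusted p = 0.00314). Spc24 was called in all 16 alternatives tried, among them a looser threshold of 0.1 on the same fit, which could not end a call. Its log2 fold was 0.93 with trends removed (edgeR adjusted p = 0.0115) and 0.90 when scaled by library size alone. Nuf2 was at 20.1 and 19.97 CPM and at 10.9 and 13.7 CPM, apart between groups at a log2 fold of -0.70 (SE 0.25 and edgeR adjusted p = 0.0618). Ndc80 was at 29.9 and 31.6 CPM and at 20.3 and 25.3 CPM, also apart, at -0.43 (SE 0.22 and edgeR adjusted p = 0.165). Nuf2, Ndc80 and Spc25 passed when scaled by library size alone, at which the median of all genes itself moved by -0.38. Within the same library, counts of Spc24 over Spc25, its partner in the complex, were 0.898, 0.704, 3.11 and 1.92 in the order above, and counts of Spc25 over Ndc80 were 1.23, 1.37, 1.33 and 1.44. The first ratio was higher in both Nr1d1-/- libraries and the second overlapped. Such ratios need no scaling between libraries but keep trends with GC content and transcript length. They were picked after the values were seen and were not tested. Per kilobase of transcript, Spc24 was in place 4 of the 48 members in Nr1d1+/+ at 23.2 CPM per kb and in place 2 in Nr1d1-/- at 56.3 CPM per kb, behind Ube2c.

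**Figure D2:**
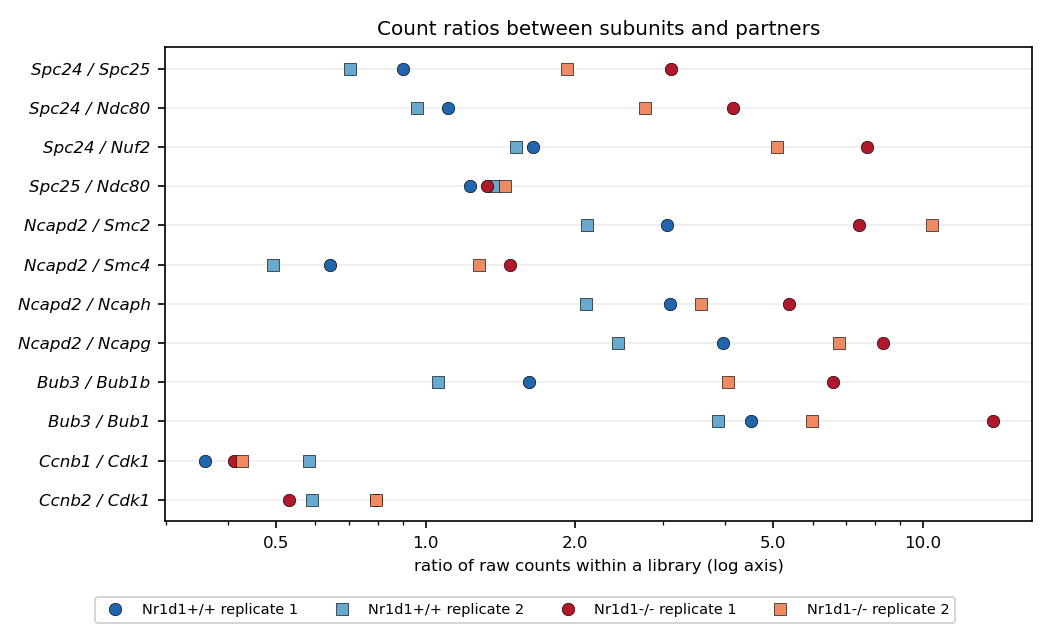
Ratios of raw counts between subunits or partners within each library (log axis), with 1 point per library. Ratios with Spc24, Ncapd2 or Bub3 on top are higher in both Nr1d1-/- libraries, and Spc25 over Ndc80 and both B-type cyclins over Cdk1 overlap between genotypes. The ratios keep trends with GC content and transcript length and were not tested.

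The 2 spindle members gave no call by edgeR, DESeq2 or limma-voom, and 0 had an unadjusted p under 0.05. Tpx2, which activates Aurora A on the spindle, was at 49.0 and 74.5 CPM in Nr1d1+/+ replicates 1 and 2 and at 49.0 and 39.3 CPM in Nr1d1-/- replicates 1 and 2. Nr1d1+/+ replicate 2 stood above the other 3 libraries, and without Nr1d1+/+ replicate 1 the log2 fold went from -0.48 to -0.79 and passed (edgeR adjusted p = 0.0441). Prc1, the bundler of midzone microtubules, was at 27.5 and 35.2 CPM and at 26.7 and 21.8 CPM. Its groups were apart by less than 1 CPM, at a log2 fold of -0.37 (SE 0.23).

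Of the 7 genes of condensin and chromosome structure, Ncapd2 rose, Smc2 and Smc4 fell and 4 did not pass. Smc4, an ATPase of condensin, was at 74.1 and 97.2 CPM in Nr1d1+/+ replicates 1 and 2 and at 52.3 and 50.8 CPM in Nr1d1-/- replicates 1 and 2. Its groups lay apart, lower in Nr1d1-/-, at a log2 fold of -0.73 (SE 0.20 and edgeR adjusted p = 0.0228), and its call ended with trends removed (-0.18, edgeR adjusted p = 0.513) and without Nr1d1+/+ replicate 2 (-0.54, edgeR adjusted p = 0.167). Its partner Smc2 was at 15.6 and 22.7 CPM and at 10.4 and 6.20 CPM. The groups did not overlap, at a log2 fold of -1.22 (SE 0.34 and edgeR adjusted p = 0.0248), and the call was lost with trends removed (-0.60, edgeR adjusted p = 0.209) and without Nr1d1+/+ replicate 2 (-0.93, edgeR adjusted p = 0.148) or Nr1d1-/- replicate 2 (-0.88, edgeR adjusted p = 0.0738). Ncapd2, a regulatory subunit of condensin I, was at 47.6 and 48.0 CPM and at 77.5 and 64.8 CPM. Both Nr1d1-/- libraries were the higher, with a log2 fold of 0.57 (SE 0.19) and an edgeR adjusted p of 0.0440, which was 0.68 with trends removed (edgeR adjusted p = 0.0303) and 0.19 when scaled by library size alone (edgeR adjusted p = 0.457). Leaving out Nr1d1+/+ replicate 1, Nr1d1+/+ replicate 2 or Nr1d1-/- replicate 1 ended the Ncapd2 call, at log2 folds of 0.53, 0.56 and 0.44 with edgeR adjusted p of 0.178, 0.169 and 0.163. It also ended without a filter on low counts (0.54, edgeR adjusted p = 0.0731) and with the older quasi-likelihood estimate (edgeR adjusted p = 0.0502). Counts of Ncapd2 over Smc4 in the same library were 0.641, 0.494, 1.48 and 1.28. Over Smc2 they were 3.05, 2.11, 7.44 and 10.4, and both ratios were higher in both Nr1d1-/- libraries. That direction follows from the levels above and adds no separate support. The ratios keep trends with GC content, which was 54.0% in Ncapd2, 40.2% in Smc4 and 39.7% in Smc2.

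Ncapg and Ncaph, the other condensin I subunits, Top2a, the topoisomerase that untangles sister chromatids, and Mki67, which encodes the proliferation marker Ki-67, had log2 folds from -0.75 to -0.23 and did not pass. The Top2a fold of -0.50 (edgeR adjusted p = 0.0550) was 0.022 with trends removed. Mki67, given outside the rule for naming genes and after its values were seen, ran from 119.8 CPM in Nr1d1-/- replicate 2 to 267.5 CPM in Nr1d1+/+ replicate 2, with overlapping groups. Its log2 fold of -0.52 (edgeR adjusted p = 0.170) passed without Nr1d1+/+ replicate 1 (-0.82, edgeR adjusted p = 0.0371), without Nr1d1-/- replicate 1 (-0.89, edgeR adjusted p = 0.0332) and when scaled by library size alone. It was -0.13 with trends removed (edgeR adjusted p = 0.704), -0.21 without Nr1d1+/+ replicate 2 and -0.22 without Nr1d1-/- replicate 2.

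The 18 Cenp transcripts split between directions: Cenpm rose, Cenpe fell and 16 did not pass, with 10 log2 folds below 0 and 8 above and a median of -0.13. Over all tested genes 16.5% rose and 17.3% fell, with 7435 log2 folds below 0 and 7366 above. Cenpm, a subunit of the centromere-associated network on CENP-A chromatin, was at 14.5 and 14.5 CPM in Nr1d1+/+ replicates 1 and 2 and at 28.1 and 27.3 CPM in Nr1d1-/- replicates 1 and 2. The replicates lay close together and the groups apart, at a log2 fold of 0.94 (SE 0.22 and edgeR adjusted p = 0.0141). The call was lost with trends removed (0.36, edgeR adjusted p = 0.254), when scaled by library size alone (0.56, edgeR adjusted p = 0.0909) and without Nr1d1+/+ replicate 1 (0.90, edgeR adjusted p = 0.0694) or Nr1d1+/+ replicate 2 (0.92, edgeR adjusted p = 0.0782). Cenpe, a kinesin that brings chromosomes to the spindle equator, was at 37.6 and 44.4 CPM and at 27.1 and 21.5 CPM. Both Nr1d1-/- libraries were the lower, at a log2 fold of -0.76 (SE 0.22 and edgeR adjusted p = 0.0306), and the call was lost with trends removed (-0.22, edgeR adjusted p = 0.454) and without Nr1d1+/+ replicate 2 (-0.65, edgeR adjusted p = 0.164) or Nr1d1-/- replicate 2 (-0.60, edgeR adjusted p = 0.0976).

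Cenpa, the histone H3 variant that marks centromeres, was at 22.3 and 24.1 CPM in Nr1d1+/+ replicates 1 and 2 and at 35.5 and 34.1 CPM in Nr1d1-/- replicates 1 and 2. The groups were apart, with a log2 fold of 0.58 (SE 0.21) and an edgeR adjusted p of 0.0568, which was 0.20 when scaled by library size alone, and Cenpa passed when scaled by upper quartiles and among genes of at least 5 CPM. Cenpw, a histone-fold subunit of the network, was at 7.38 and 6.03 CPM and at 10.3 and 13.4 CPM, apart between groups. Its log2 fold of 0.82 (SE 0.31 and edgeR adjusted p = 0.0704) passed with trends removed (0.98, edgeR adjusted p = 0.0482). Cenpq was at 8.37 and 12.1 CPM and at 2.93 and 7.45 CPM, and Cenpk, also of the network, was at 9.13 and 7.80 CPM and at 4.77 and 6.89 CPM. Both Nr1d1-/- libraries were the lower for each gene. The log2 fold of Cenpq was -0.96 (edgeR adjusted p = 0.125), and it passed without Nr1d1-/- replicate 2 (-1.80, edgeR adjusted p = 0.0138), when scaled by library size alone and with the replicate number as a block. The log2 fold of Cenpk was -0.53 (edgeR adjusted p = 0.256). Cenpf, a large protein of the outer kinetochore, was at 36.9 and 40.7 CPM and at 33.4 and 22.8 CPM. Its log2 fold of -0.47 (edgeR adjusted p = 0.163) was -0.039 with trends removed, and it passed without Nr1d1-/- replicate 1 (-0.77, edgeR adjusted p = 0.0477) and when scaled by library size alone. Cenpj, known as a protein of centriole growth, was at 12.6 and 9.24 CPM and at 8.50 and 5.34 CPM, at -0.67 (edgeR adjusted p = 0.170). The other 10 Cenp transcripts had log2 folds from -0.49 to 0.37.

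Cenpq shares 363 bases with Mut, a mitochondrial enzyme gene on the opposite strand, which fell (log2 fold -1.68, edgeR adjusted p = 0.0118). In all, 14 members overlap an annotated protein-coding gene. All overlaps given are of whole gene spans, introns included, and overlap of exons was not measured. Cenpk shares 233 bases with Ppwd1, which also fell (-1.03, edgeR adjusted p = 0.0182), Ncapg shares 3366 bases with Lcorl (-1.42, edgeR adjusted p = 0.0249) and Cdc20 shares 53 bases with Elovl1, which rose (0.77, edgeR adjusted p = 0.0160). The values of these members are uncertain to the extent that reads of a neighbour were counted, which was not tested. Of the 7 called members, none overlaps a protein-coding gene in the annotation.

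**Figure D3:**
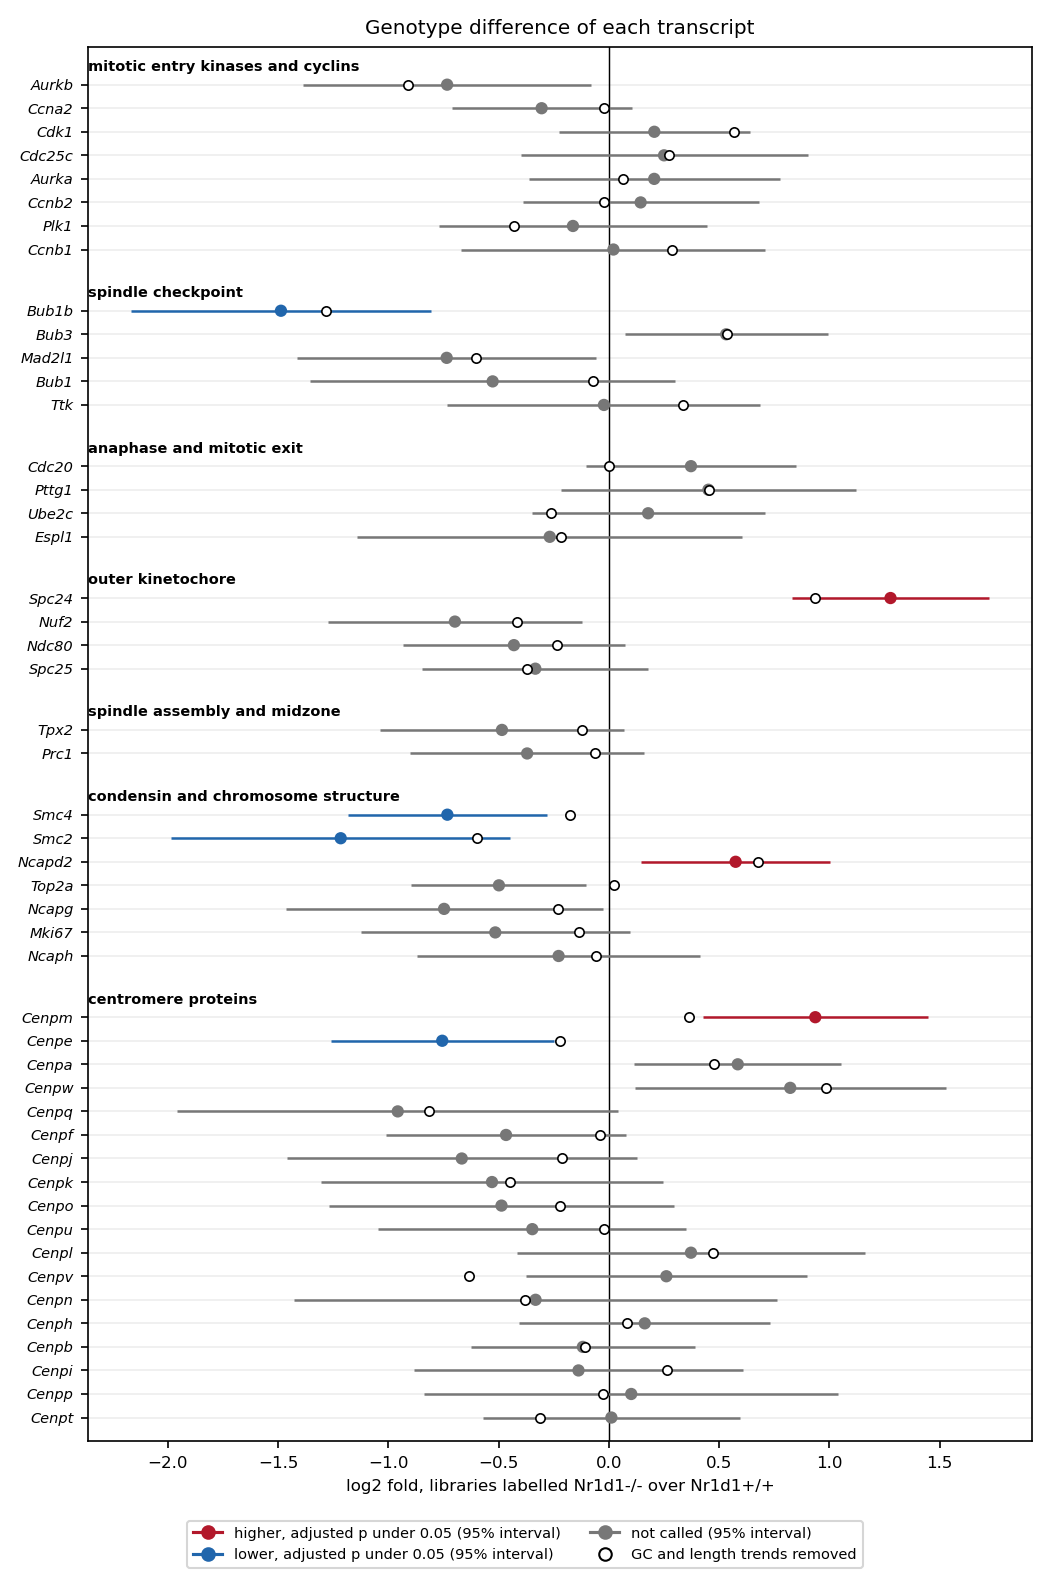
Log2 fold of each of the 48 transcripts, Nr1d1-/- over Nr1d1+/+, with its 95% interval and, as open circles, the value with GC and length trends removed. The 3 transcripts that rose are red, the 4 that fell are blue and the 41 not called are grey, and the open circles of Smc4, Cenpe, Cenpm, Top2a and Cenpv lie outside their intervals.

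Differences between genotypes followed transcript length in these members as in all genes. Across the 48 members, Spearman's rho of the log2 fold with transcript length was -0.50, a description over genes that share the same 4 libraries, and over 14650 genes it was -0.32. With GC content the values were 0.47 and 0.32. The 8 members under 1500 bases, Spc24 and Cenpm among them, had a median log2 fold of 0.22, the 22 of 1500 to 2999 bases -0.093 and the 18 of at least 3000 bases -0.49. All tested genes in the same classes had medians of 0.56, 0.093 and -0.35. All 4 members that fell have at least 3000 bases, as does Ncapd2, which has 4629 and rose. With trends removed, rho with length was -0.053 in the members, and 3 members were higher (Spc24, Ncapd2 and Cenpw) and 2 lower (Bub1b and Aurkb). That is 10.4% of members beside 21.8% of all 14650 genes. Spc24, Ncapd2 and Bub1b were called both ways. Whether such trends come from RNA quality, library preparation or the tumours was not tested, and structured RNAs took 3.97% and 4.25% of counts in Nr1d1+/+ and 6.06% and 9.05% in Nr1d1-/-.

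**Figure D4:**
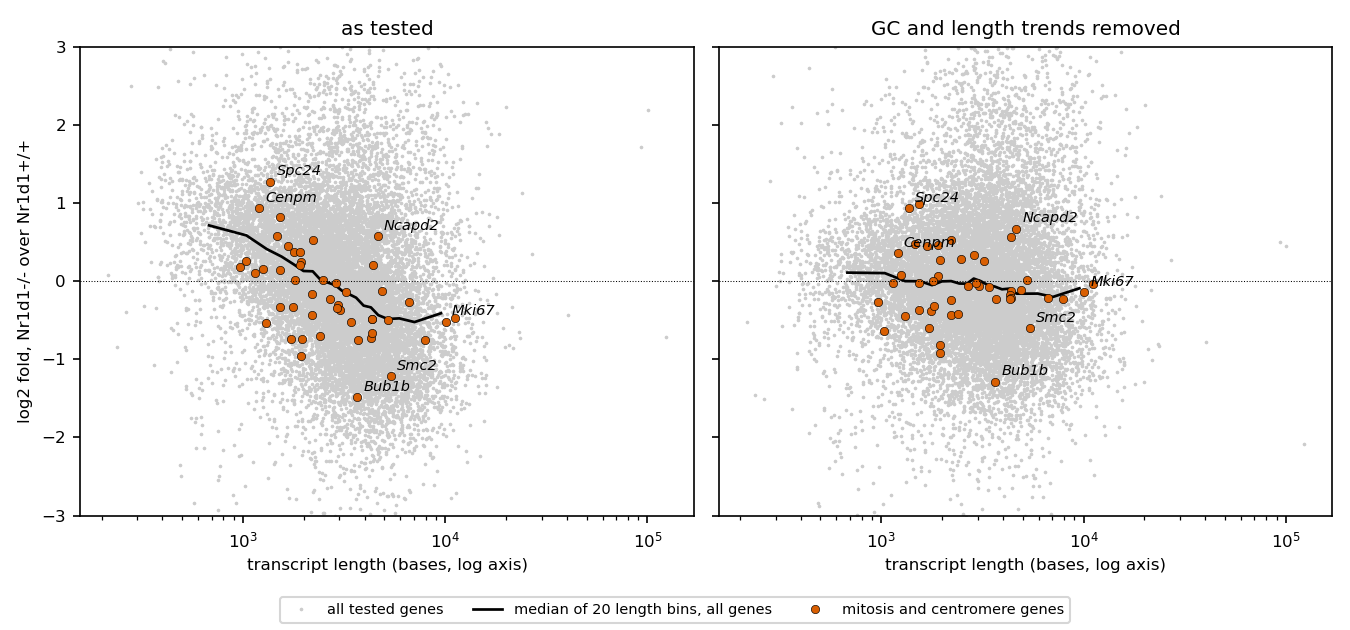
Log2 fold against transcript length (log axis) for the 48 members and all tested genes of at least 200 bases, as tested and after both trends were removed; the line is the median of all genes in 20 length bins, and 145 and 159 genes lie beyond the vertical axis. The members fall from upper left to lower right with the line in the first panel. In the second they lie on both sides of 0 up to Top2a at 5221 bases, and all longer members lie below 0.

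Other genes of the cell division machinery were counted in lists chosen with the earlier results known. Of 133 tested, 17 rose and 39 fell, beside 16.5% and 17.3% of all genes, or 15 and 17 of 132 with trends removed, beside 11.2% and 10.6% of all genes. Among all tested genes of at least 3000 bases, 2000 of 7216 fell. Cohesin and condensin II, which hold and fold chromosomes, gave 16 tested genes: 10 fell and 1 rose, with a median log2 fold of -0.99, and 6 fell with trends removed. Rad21, the cleaved subunit of cohesin, fell from 166.0 and 170.4 CPM to 55.9 and 52.4 CPM (log2 fold -1.64, edgeR adjusted p = 0.00143). The cohesin loader Nipbl and the regulator Pds5a fell by 1.67 and 2.10 on the log2 scale. Of 26 motors, spindle and cytokinesis genes, 11 fell and 0 rose by edgeR, with 1 higher at an unadjusted p under 0.05 and 0 higher by DESeq2 and limma-voom. Only 3 of them fell with trends removed and 2 fell without Nr1d1+/+ replicate 2. Hmmr, a spindle protein, was at 34.4 and 45.5 CPM and at 10.6 and 7.32 CPM (log2 fold -2.16, edgeR adjusted p = 0.00223). Anln, anillin of the cleavage furrow, and Ckap5, a microtubule polymerase, fell by 2.83 and 1.19 on the log2 scale. Without Nr1d1+/+ replicate 2 the log2 fold of Anln was -1.80 and that of Ckap5 did not pass (-0.93, edgeR adjusted p = 0.0673), nor did Ckap5 with trends removed (-0.65, edgeR adjusted p = 0.0744).

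Of 29 other kinetochore, passenger and checkpoint genes, 3 rose and 6 fell, beside 16.5% and 17.3% of all genes. With trends removed, 3 rose and 1 fell, beside 11.2% and 10.6% of all genes. These counts changed when single libraries were left out, as did those over all genes. Nsl1, of the MIS12 complex that joins inner and outer kinetochore, was at 4.87 and 4.26 CPM in Nr1d1+/+ and at 16.8 and 12.97 CPM in Nr1d1-/- (log2 fold 1.70, edgeR adjusted p = 0.00524), and rose with trends removed too. Ska2, of a complex that tracks microtubules, had a log2 fold of -1.54 (edgeR adjusted p = 0.0230). The Ska2 call was lost with trends removed (-1.13, edgeR adjusted p = 0.0853), without Nr1d1+/+ replicate 1 (edgeR adjusted p = 0.119) and without Nr1d1-/- replicate 1 (edgeR adjusted p = 0.0681). Of 18 genes of the anaphase-promoting complex, 5 rose and 2 fell, beside 16.5% and 17.3% of all genes. With trends removed, 4 rose and 1 fell, beside 11.2% and 10.6%. Fewer rose when Nr1d1+/+ replicate 2 was left out, as over all genes. The subunits Cdc23 and Cdc27 fell by 1.22 and 1.26 on the log2 scale (edgeR adjusted p = 0.00409 and 0.00520), of which Cdc27 did not pass with trends removed (-0.66, edgeR adjusted p = 0.0713). Ube2s, the enzyme that extends ubiquitin chains for the complex, rose by 1.02 (edgeR adjusted p = 0.00496) and did not pass with trends removed (0.34).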

How the data were processed

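The authors deposited raw read counts per gene symbol for 2 Nr1d1+/+ and 2 Nr1d1-/- tumour samples. Per the labels' protocols, Trizol was used for extraction and a stranded SMARTer kit of Clontech for the libraries, and reads were aligned with TopHat to mm10 per the submitters' processing notes. The sources used here do not name the counting program, the annotation or the use of strand.

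Rows were filtered with filterByExpr (minimum count 10), scaled with TMM and passed to edgeR 4.0.16 (R 4.3.3), whose quasi-likelihood test (legacy=FALSE) was run on genotype alone, leaving 2 residual degrees of freedom, with Benjamini-Hochberg adjustment over 14801 rows. The threshold was an adjusted p under 0.05. The method was tested on simulated data. GC and length trends were removed with natural splines (5 degrees of freedom) of each library's log2 CPM (prior count 2) passed as offsets, for 14650 rows. Lengths, positions and overlaps came from GENCODE M21 (GRCm38), which matched 22230 of 23282 rows by symbol and 669 by synonym. Alternatives used limma 3.58.1 and DESeq2 1.42.0, other scalings and filters, a replicate block and leaving out each library, where a lone sample is assumed to vary like the others. Tables were made in Python 3.11.15 and figures with matplotlib 3.10.9.

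The members, lists and rules were chosen with earlier results of these data known. Values in every sample are given for the 3 members of lowest p in each role, 8 for Cenp genes, and for members called against most others, and at most 3 called genes are named per other list. Items withheld for evaluation are not reported here.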

Additional observations from a re-analysis of the deposited data

How the results depend on the processing

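Calls among the 48 members were few, 7 beside 33.9% of all genes. The same 7 members were called with DESeq2 size factors, with DESeq2, with limma-voom and without structured RNAs. The other settings changed the calls. With upper quartile scaling 5 members were higher, beside 2737 of all 14801 genes. With library size only, 1 was higher and 18 were lower (8.65% and 29.8% of all genes). With GC and length trends removed, 2 were lower, beside 10.6% of all genes. At an edgeR adjusted p under 0.1, 6 were higher and 9 lower, beside 3160 and 3269 of all 14801 genes. Leaving out 1 library gave 1 to 4 higher and 0 to 7 lower. The 0 lower came from edgeR without Nr1d1+/+ replicate 2, where 2 members were lower at an unadjusted p under 0.05. The members' median log2 fold was -0.63 with library size only, where the median of all genes moved by -0.38. Over all genes, library size only gave 1281 higher and 4410 lower, trends removed gave 1553 lower, and leaving out 1 library gave 1212 to 2463 higher and 1277 to 2548 lower. The other pathway lists had 7 higher with library size only, 17 lower with trends removed, and 7 to 14 higher and 18 to 36 lower on leaving out 1 library. The members' mean share per 1000000 counts without structured RNAs was 1855 in Nr1d1+/+ and 1336 in Nr1d1-/-. On TMM library sizes it was 1556 in Nr1d1+/+ and 1411 in Nr1d1-/-, with overlapping groups.

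With the replicate number as a block, 3 members were higher and 5 lower, Cenpq (log2 fold -1.06, edgeR adjusted p = 0.0463) being added, and 2622 genes were higher and 2704 lower in all. Same-numbered samples did not deviate together (correlation 0.026 over 14801 genes), so the numbers were not taken to pair them. The block turned Cenpp to -0.010, and limma-voom turned it to -0.003.

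Log2 folds of uncalled members changed sign as follows. With library size only they were -0.18 for Cdk1, -0.009 for Cdc20, -0.21 for Ube2c, -0.13 for Cdc25c, -0.18 for Aurka, -0.23 for Ccnb2, -0.37 for Ccnb1, -0.011 for Cenpl, -0.11 for Cenpv, -0.22 for Cenph, -0.27 for Cenpp and -0.36 for Cenpt, all by the construction of a scaling that lowers every gene alike. With trends removed they were -0.000205 for Cdc20, -0.26 for Ube2c, -0.020 for Ccnb2, 0.34 for Ttk, 0.022 for Top2a, -0.64 for Cenpv, 0.26 for Cenpi, -0.025 for Cenpp and -0.31 for Cenpt. Without a filter on low counts they were -0.011 for Ccnb1 and -0.018 for Cenpt. Ttk was at 0.031 with upper quartile scaling and 0.023 among genes of at least 5 CPM. Across the fits that leave out 1 library the range was -0.19 to 0.47 for Ube2c, -0.035 to 0.43 for Aurka, -0.11 to 0.36 for Ccnb2, -0.49 to 0.11 for Plk1 and -0.39 to 0.50 for Ccnb1. It was -0.36 to 0.26 for Ttk, -0.67 to 0.20 for Espl1, -0.53 to 0.075 for Ncaph, -1.26 to 0.19 for Cenpn and -0.45 to 0.15 for Cenpb. It was -0.36 to 0.053 for Cenpi, -0.69 to 0.58 for Cenpp, -0.15 to 0.15 for Cenpt and -0.79 to 0.15 for Nr1d1. The cause of the other changes was not tested. Of the remaining values of single genes, 962 kept their direction and side of the threshold, 28 no longer passed and 36 came to pass.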

Other observations

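Of 23 genes that control cell cycle transcription, 8 fell and 4 rose, beside 17.3% and 16.5% of all genes, and 6 fell and 3 rose with GC and length trends removed, beside 10.6% and 11.2%. These counts changed when single libraries were left out, as did those over all genes. Rbl2, which encodes the pocket protein p130 of the DREAM complex, was at 33.6 and 33.0 CPM in Nr1d1+/+ replicates 1 and 2 and at 4.62 and 5.52 CPM in Nr1d1-/- replicates 1 and 2 (log2 fold -2.71, edgeR adjusted p = 0.00132). Rb1, the retinoblastoma protein, was at 60.7 and 64.1 CPM and at 15.9 and 22.8 CPM, and Tfdp1, the partner of E2F factors, at 54.1 and 82.4 CPM and at 19.9 and 26.6 CPM. For these 3 genes both Nr1d1-/- libraries were the lower in each. Of 21 genes of DNA replication, 4 rose and 2 fell, beside 16.5% and 17.3% of all genes. With trends removed, 4 rose and 0 fell, beside 11.2% and 10.6%. Fewer were called without Nr1d1+/+ replicate 2, as over all genes. Tyms, thymidylate synthase, was at 78.9 and 69.7 CPM and at 220.1 and 196.1 CPM (log2 fold 1.49, edgeR adjusted p = 0.00207). The clamp loader subunits Rfc2 and Rfc1 went in opposite directions, by 1.03 and -0.99 on the log2 scale (edgeR adjusted p = 0.00595 and 0.00778), and Rfc1 did not pass with trends removed.

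Replicates of 1 genotype differed most in 3 Cenp transcripts, which were named after their values were seen. Cenpn was at 2.35 CPM in Nr1d1-/- replicate 1 and 6.45 CPM in replicate 2, Cenpq at 2.93 and 7.45 CPM, and Cenpp at 4.98 and 12.0 CPM. Replicates labelled Nr1d1-/- differed by over 1 on the log2 scale in these 3 members and those labelled Nr1d1+/+ in none of the 48. In Nr1d1-/- replicate 1 the raw counts of Cenpn, Cenpq and Cenpp were only 32, 40 and 68. The share of all genes with such a difference was not counted. By whole gene spans, introns included, Cenpp overlaps 5 genes on the opposite strand that were in the count tables. The overlap was 551 bases for Ippk and 10361 to 27980 bases for Ecm2, Aspn, Omd and Ogn.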
